A study of Mus musculus with 2 samples.

Results

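A pair of ATP-consuming cycles of brown fat were followed through 9 genes, 6 of creatine metabolism (Gatm, Gamt, Slc6a8, Ckb, Ckmt1 and Ckmt2) and 3 calcium pumps of the endoplasmic reticulum (Atp2a1, Atp2a2 and Atp2a3). They were taken by name, with Entrez identifiers matched to symbols, from 16174 genes listed in at least 1 of 2 RNA sequencing libraries of brown adipose tissue. Of the 9 genes, 8 were listed and 6 reached 1 FPKM (fragments per kilobase of transcript, scaled to library size) in at least 1 library, the level required here for a gene to be tested against a rule of size. Each of these 6 reached it in both libraries.

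The D3BKO library is of genotype D3Bfl/fl-UCP1-Cre+/-, floxed for D3B and carrying 1 Cre transgene, and the D3BWT library is of genotype D3Bfl/fl, floxed without a named Cre. All were C57BL/6 mice of 45 weeks on chow, female by the title of the series, and D3B is read as Dnmt3b from knowledge of the study. The Cre is driven by the promoter of Ucp1, so recombination is directed to brown adipocytes and not to the other cells of the depot, and the control label names no Cre, so that Cre and floxed-allele loss cannot be told apart. The labels do not give the number of mice behind a library. There was 1 library per genotype, on lane 1 for D3BKO and lane 2 for D3BWT, so genotype and lane cannot be told apart either, and no difference between the libraries has a replicate check. Depth was 10068359 expected counts in D3BKO and 9666528 in D3BWT. Dnmt3b itself was at 0.18 FPKM in D3BKO (7 counts) and 0.39 FPKM in D3BWT (15 counts), with a ratio of 0.462 and a 95% counting interval of 0.155 to 1.17, so a lower level was not detectable at this depth. The tissue label was checked on 12 brown adipocyte markers, all of which were listed in both libraries, with Ucp1 at 4271 FPKM in D3BKO and 4987 FPKM in D3BWT.

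Creatine is built from arginine and glycine by Gatm, which makes guanidinoacetate, and Gamt, which methylates it, and it is taken up from blood by the transporter Slc6a8. Creatine kinases charge creatine with phosphate from ATP. In thermogenic fat of mice phosphocreatine can be hydrolysed and recharged again and again, which spends ATP as heat. Calcium cycling spends ATP in another way: SERCA pumps, the products of the Atp2a genes, move calcium into the reticulum, and release channels let it out again. Both cycles have been described as sources of heat beside Ucp1, the uncoupling protein of brown mitochondria.

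The levels of the 9 genes spanned several orders of magnitude. In the D3BKO library the order was Atp2a2, Ckb, Gamt, Slc6a8, Atp2a3, Gatm, Ckmt1 and Atp2a1, and in the D3BWT library it was Ckb, Atp2a2, Slc6a8, Gamt, Atp2a3, Gatm, Ckmt1 and Atp2a1, with Ckmt2 listed in neither. Ckb and Atp2a2 had changed places, and so had Gamt and Slc6a8. Counting intervals of neighbouring genes overlapped for Gamt (9.91 to 14.5 FPKM) and Slc6a8 (9.47 to 11.5 FPKM) in D3BKO, and in D3BWT they did not, at 5.32 to 8.94 FPKM for Gamt and 10.5 to 12.6 FPKM for Slc6a8. Each such interval is a 95% exact Poisson interval of the reads, covers counting error only and treats reads copied by PCR as independent molecules. It carries no spread between mice.

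**Figure D1:**
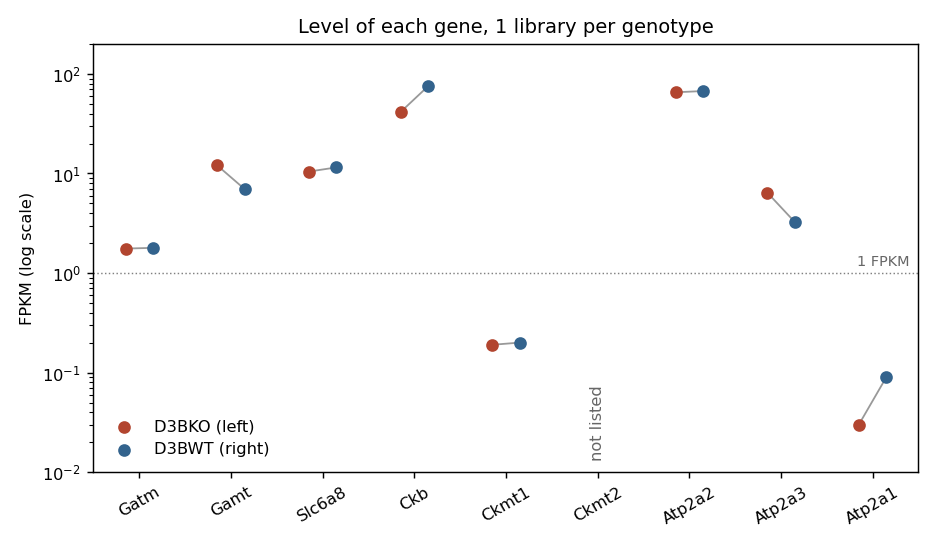
FPKM on a log axis for the 9 genes, with the D3BKO library at the left and the D3BWT library at the right of each pair. Each point is 1 library, the dotted line is 1 FPKM, and Ckb is lower in D3BKO (41.4 FPKM) than in D3BWT (75.2 FPKM), while Gamt and Atp2a3 are higher in D3BKO.

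Of the 6 tested genes, 3 were past 1.5-fold: Gamt and Atp2a3 were higher in the D3BKO library and Ckb was lower. A gene counted as past 1.5-fold when the ratio of FPKM + 1 between the libraries was past 1.5 in either direction and the 95% counting interval of the ratio excluded 1. None of the 6 was past 2-fold. Over all 11746 tested genes 7.77% were past 1.5-fold, 4.35% higher and 3.42% lower, and 1.58% were past 2-fold, 0.902% higher and 0.673% lower. The higher share of the genes past 1.5-fold was 56% as deposited and 69.3% once the FPKM of each library was scaled to a common sum. The median log2 ratio of FPKM + 1, D3BKO over D3BWT, was -0.03 over the 6 genes and -0.03 over all tested genes, because Gatm, Slc6a8 and Atp2a2 lay close to 0.

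**Figure D2:**
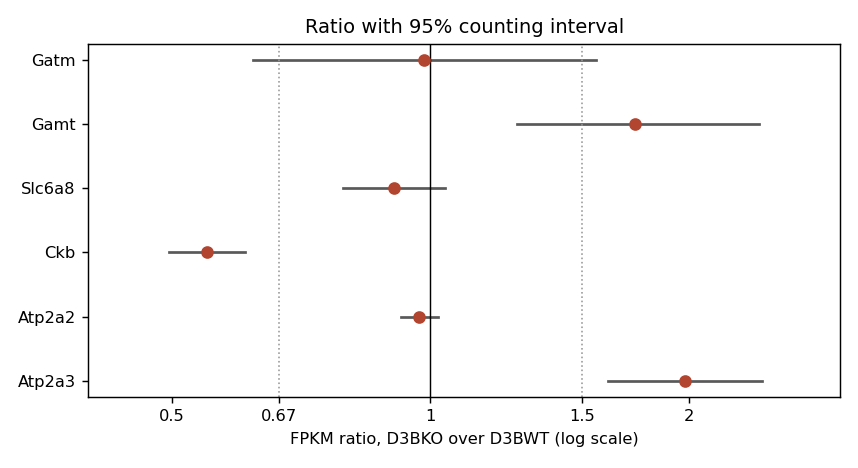
Ratio of FPKM in D3BKO over D3BWT on a log axis for the 6 tested genes, with bars for the 95% counting interval and dotted lines at 1.5-fold in each direction. Ckb (0.55), Gamt (1.73) and Atp2a3 (1.98) have intervals that exclude 1, and the intervals of Gatm, Slc6a8 and Atp2a2 include it.

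The sequences just upstream of the genes past 1.5-fold are shown because the deleted gene encodes an enzyme that methylates cytosines before guanines. Each is the 250 bases before the start in the RefSeq promoter table of GRCm38.p6, which covers 7 of the 9 genes, is read on the strand of the gene and has every CG pair in capitals. Gatm, whose level was alike in both libraries, stands beside these 3 genes. Ckb lies at chr12:111672339-111672588 on the minus strand, Gamt at chr10:80261013-80261262 on the minus strand, Atp2a3 at chr11:72960919-72961168 on the plus strand and Gatm at chr2:122611278-122611527 on the minus strand.
Ckb: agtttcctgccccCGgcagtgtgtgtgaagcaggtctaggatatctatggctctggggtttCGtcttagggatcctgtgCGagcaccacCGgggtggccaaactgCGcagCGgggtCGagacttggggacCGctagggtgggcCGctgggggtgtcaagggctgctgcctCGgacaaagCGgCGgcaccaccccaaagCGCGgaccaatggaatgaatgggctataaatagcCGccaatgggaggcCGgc
Gamt: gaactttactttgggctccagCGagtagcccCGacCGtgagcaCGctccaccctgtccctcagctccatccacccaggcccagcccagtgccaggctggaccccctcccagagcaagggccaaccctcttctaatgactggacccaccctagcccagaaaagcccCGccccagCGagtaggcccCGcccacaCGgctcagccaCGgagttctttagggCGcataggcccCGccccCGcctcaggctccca
Atp2a3: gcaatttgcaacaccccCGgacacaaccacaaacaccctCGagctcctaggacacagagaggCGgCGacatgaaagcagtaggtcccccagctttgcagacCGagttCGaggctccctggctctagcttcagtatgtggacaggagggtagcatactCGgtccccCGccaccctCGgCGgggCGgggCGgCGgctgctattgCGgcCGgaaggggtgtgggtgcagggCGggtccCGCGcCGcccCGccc
Gatm: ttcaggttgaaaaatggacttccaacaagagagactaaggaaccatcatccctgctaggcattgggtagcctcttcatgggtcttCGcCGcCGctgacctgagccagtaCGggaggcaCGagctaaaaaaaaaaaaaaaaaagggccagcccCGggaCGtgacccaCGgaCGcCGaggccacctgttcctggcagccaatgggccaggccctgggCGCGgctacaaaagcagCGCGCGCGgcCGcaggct
These windows hold 16 CG pairs in Ckb, 12 in Gamt, 20 in Atp2a3 and 17 in Gatm, against a median of 6 over the 32851 promoters of the table. The gene that was lower (Ckb), those that were higher and the one that hardly differed (Gatm) thus all had many CG pairs, more than 66.5% to 82.1% of all promoters. Relative to the number expected from the C and G bases of the window, the CG pairs were 0.67 in Ckb, 0.47 in Gamt, 0.72 in Atp2a3 and 0.78 in Gatm. Atp2a1 had 3 CG pairs and Ckmt2 had 2, fewer than the median promoter, and Ckmt1 has 2 starts in the table, with 4 CG pairs before one and 9 before the other. A TATA box (TATAAA, either strand) stood once in Ckb and in none of the other 3 windows shown, and 12.4% of all promoters hold it. The CRE half-site (TGACG, either strand, which holds a CG pair itself) was in none of the 4 windows and in 17.8% of all promoters, and the ERR element (TNAAGGTCA, either strand) was in none of the 4 and in 1.14% of all. Methylation of these sequences was not measured here.

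Ckb, the cytosolic brain-type creatine kinase that has been tied to creatine cycling in mouse brown adipocytes, was at 41.4 FPKM in the D3BKO library and 75.2 FPKM in the D3BWT library. The reads behind these levels were 594 in D3BKO and 1037 in D3BWT. The ratio was 0.55, with a counting interval of 0.497 to 0.609. Among the tested genes 1.17% had a lower log2 ratio than Ckb, which was -0.85. Bulk tissue does not tell fewer cells of a type from less RNA per cell. All 12 brown adipocyte markers were tested, and their FPKM summed to 14759 in D3BKO and 18908 in D3BWT, a ratio of 0.781, with 11 log2 ratios below 0, 2 markers past 1.5-fold lower (Dio2 and Zic1) and 1 higher (Elovl3). None of them was listed at 0. Zic1 passed the level of 1 FPKM in the D3BWT library alone, at 2.19 FPKM there and 0.99 FPKM in D3BKO. The part of these cells in the Ckb result was not tested. Relative to Ucp1, the Ckb level was also lower: Ucp1 stood 103 times above Ckb in D3BKO and 66.3 times above it in D3BWT. Nerve and Schwann cell markers, read because neural cells are rich in Ckb, summed to 221.5 FPKM in D3BKO and 218.83 FPKM in D3BWT, with Snap25 and Th listed in neither library. S100b made up most of both sums, at 202.94 FPKM in D3BKO and 202.22 FPKM in D3BWT. Of the 4 tested genes of that list 1 was past 2-fold, Uchl1, a ubiquitin hydrolase of neurons, at 3.24 FPKM in D3BKO and 0.84 FPKM in D3BWT, and it was tested through the D3BKO library alone.

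The mitochondrial creatine kinases, which sit between the mitochondrial membranes, were at or near the floor. Ckmt1, the ubiquitous form, was at 0.19 FPKM in D3BKO and 0.2 FPKM in D3BWT, on 3 reads in each library, too few for a ratio. Ckmt2, the sarcomeric form, was listed in neither library, and neither was Ckm, the muscle-type cytosolic kinase. A gene without a line is taken as 0 by the rule that chose the genes, and whether the annotation used for counting held Ckmt2 is not known here. Among the creatine kinases with a value, Ckb therefore held 99.5% of the summed FPKM in D3BKO and 99.7% in D3BWT, and the summed FPKM of these kinases was 41.6 in D3BKO and 75.4 in D3BWT.

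Gamt, the methyltransferase that completes creatine, was at 12.1 FPKM in D3BKO and 6.96 FPKM in D3BWT. These levels rest on 110 reads in D3BKO and 61 in D3BWT, and the ratio of 1.73 had a counting interval of 1.26 to 2.41. A higher log2 ratio than the 0.71 of Gamt was found in 2.87% of tested genes. Gatm, the enzyme one step earlier, was low in both libraries, with 1.76 FPKM (41 reads) in D3BKO and 1.79 FPKM (40 reads) in D3BWT. Its ratio of 0.983 had a wide interval, 0.621 to 1.56, which holds a moderate difference either way. Gamt stood 6.85 times above Gatm in D3BKO and 3.89 times above it in D3BWT. Slc6a8, the creatine transporter, was at 10.45 FPKM in D3BKO (414 reads) and 11.5 FPKM in D3BWT (438 reads), a ratio of 0.908 with an interval of 0.792 to 1.04. The gene of the last step of synthesis was thus higher in D3BKO and the kinase gene lower, while the intervals for the first step and for uptake included 1. The level of Ckb relative to Gamt was 3.43 in D3BKO and 10.8 in D3BWT.

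Around these genes a list of 12 partners of creatine phosphate transfer was read, of which 11 were tested. Past 1.5-fold there was 1 gene higher and none lower, and the median log2 ratio was -0.01, against -0.03 over all tested genes. Its sign changed with scaling, from -0.01 as deposited to 0.08 once the FPKM of each library was scaled to a common sum. Over all alternatives it ranged from -0.07, where the mean had to reach 5 FPKM, to 0.08. The gene past 1.5-fold was Ak4, a mitochondrial adenylate kinase, at 2.25 FPKM in D3BKO and 1.13 FPKM in D3BWT, with a ratio of 1.99 (interval 1.43 to 2.8). Ak1, the cytosolic adenylate kinase, lay just short of the threshold at 30.7 FPKM in D3BKO and 46.25 FPKM in D3BWT, a ratio of 0.663 (0.598 to 0.735). Alpl, the phosphatase that has been reported to hydrolyse phosphocreatine in mouse thermogenic fat, was at 4.74 FPKM in D3BKO and 6.31 FPKM in D3BWT, a ratio of 0.751 (0.585 to 0.962) that was not past 1.5-fold. Slc16a12, a creatine carrier of the kidney, was at 1.12 FPKM in D3BKO and 0.46 FPKM in D3BWT and was tested through the D3BKO library alone, on 43 reads in D3BKO and 17 in D3BWT. The carriers and pores that mitochondrial creatine kinase is known to pair with were abundant and nearly level. The adenine nucleotide carrier gene Slc25a4 was at 493 FPKM in D3BKO and 517 FPKM in D3BWT, and the pore gene Vdac1 at 235 FPKM in D3BKO and 222 FPKM in D3BWT, both chosen after their values were seen.

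Supply of arginine and methyl groups to creatine synthesis was read from 13 genes, of which 9 were tested and none was past 1.5-fold. The median log2 ratio was -0.16, with 7 of 9 below 0, where 53.8% of all tested genes were below 0. It stayed below 0 under the alternatives, from -0.17 to -0.08. Shmt1, which passes one-carbon units from serine and yields glycine, was at 14.6 FPKM in D3BKO and 20.6 FPKM in D3BWT, a ratio of 0.709 (0.608 to 0.825). Ahcy, which clears the S-adenosylhomocysteine left by methyltransferases such as Gamt, was at 18.8 FPKM in D3BKO and 24.5 FPKM in D3BWT, a ratio of 0.767 (0.679 to 0.867). Mat2b, a subunit of the enzyme that makes the methyl donor, had a ratio of 0.81 (0.74 to 0.887). Mat2a, another subunit of that enzyme, ran the other way, at 77.4 FPKM in D3BKO and 66.6 FPKM in D3BWT. Its ratio was 1.16 (1.09 to 1.24), and it was chosen after its values were seen. Slc7a1, an arginine transporter tested through the D3BKO library alone, was at 1.08 FPKM in D3BKO and 0.74 FPKM in D3BWT.

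Among the SERCA pumps, Atp2a2, the form of most tissues, was level and Atp2a3 was higher in the D3BKO library. Atp2a2 was at 65.4 FPKM on 3137 reads in D3BKO and 67.3 FPKM on 3140 reads in D3BWT. Its ratio of 0.971 had the narrowest interval of the 6 tested genes, 0.924 to 1.02. Atp2a3, a form known from blood cells, platelets and vessel linings, was at 6.44 FPKM on 295 reads in D3BKO and 3.26 FPKM on 143 reads in D3BWT. The ratio was 1.98 with an interval of 1.61 to 2.43, and 2.04% of tested genes had a higher log2 ratio. Atp2a1, the pump of fast skeletal muscle, had 1 read in D3BKO (0.03 FPKM) and 3 reads in D3BWT (0.09 FPKM), so no ratio is given. Its exons share 763 bases with the opposite-strand gene Rabep2, and the protocol does not state strand, so even these reads cannot be assigned to it with certainty. Strand overlap with another listed gene did not touch Ckb, Gamt, Atp2a2 or Atp2a3 in GENCODE M21. The counts of all 8 listed genes were whole to within 0.05, so no divided reads were seen between the related pumps or kinases.

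Atp2a2 and Atp2a3 together made up nearly all of the SERCA RNA, which summed to 71.9 FPKM in D3BKO and 70.7 FPKM in D3BWT. Within it Atp2a2 held 91% in D3BKO and 95.3% in D3BWT. The share of Atp2a3 was 8.96% in D3BKO and 4.61% in D3BWT. As a share of SERCA reads it was 8.59% in D3BKO (exact 95% binomial interval 7.68% to 9.58%) and 4.35% in D3BWT (3.68% to 5.11%), and these counting intervals do not overlap. The summed SERCA RNA of the tissue was thus nearly the same in both libraries, with a larger part from Atp2a3 in D3BKO. Pump protein was not measured here. Relative to Ucp1, the Atp2a2 level was slightly higher in D3BKO, where Ucp1 stood 65.3 times above it, than in D3BWT, where it stood 74.1 times above.

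**Figure D3:**
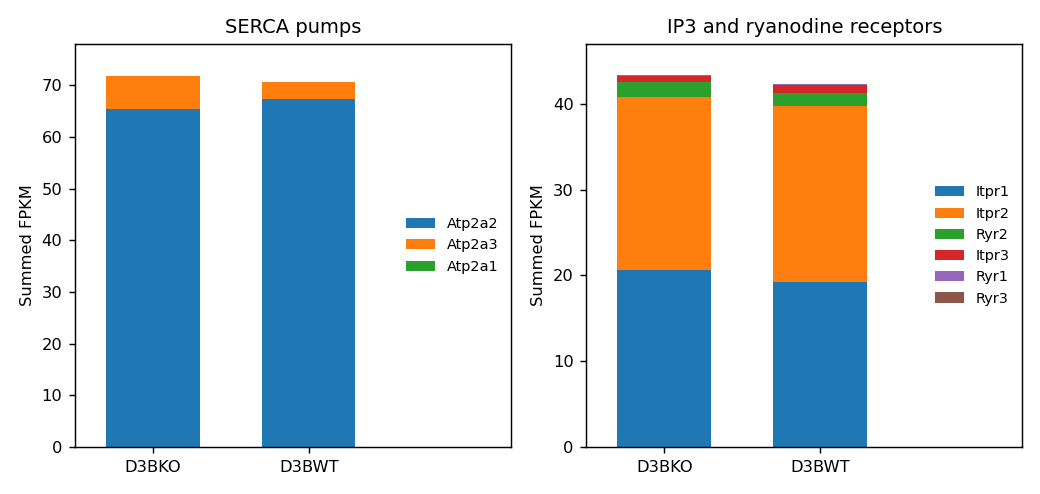
Summed FPKM of the SERCA pumps (left panel) and of the calcium release channels (right panel), stacked by gene, with the D3BKO library left of the D3BWT library. Atp2a3 is a larger part of the SERCA bar in D3BKO (6.44 of 71.9 FPKM) than in D3BWT (3.26 of 70.7 FPKM), and the channel bars are nearly alike.

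Markers of cells that also use Atp2a3 differed between the libraries. The 13 immune markers summed to 59.6 FPKM in D3BKO and 34.7 FPKM in D3BWT, and of the 6 that were tested 5 were past 1.5-fold higher. These were myeloid or general leukocyte genes: Cd68, a macrophage protein, was at 21.1 FPKM in D3BKO and 10.7 FPKM in D3BWT, and Ptprc, the common leukocyte antigen, at 3.79 FPKM in D3BKO and 1.57 FPKM in D3BWT. Itgax was tested through the D3BKO library alone. T and B cell markers were below 1 FPKM in both libraries, and Cd3e had no line in D3BKO. The 4 platelet markers summed to 42.1 FPKM in D3BKO and 25.8 FPKM in D3BWT, with no line for Gp1bb in D3BWT. Nearly all of both sums came from Pf4, at 39.8 FPKM in D3BKO and 24.7 FPKM in D3BWT. Itga2b was at 1.14 FPKM in D3BKO and 0.82 FPKM in D3BWT, and Ppbp and Gp1bb were below 1 FPKM in both libraries. The platelet sums thus stand mainly for Pf4 and are no measure of platelets by themselves. Endothelial markers mostly ran the other way, with 7 genes that summed to 146 FPKM in D3BKO and 216 FPKM in D3BWT. Of these 7 genes 6 had a log2 ratio below 0, and 3 were past 1.5-fold lower (Cldn5, Emcn and Kdr). The 1 above 0 was Vwf, at 3.36 FPKM in D3BKO and 2.81 FPKM in D3BWT. Set against these sums, Atp2a3 was 0.108 of the immune sum in D3BKO and 0.094 in D3BWT, 0.153 of the platelet sum in D3BKO and 0.127 in D3BWT, and 0.0441 of the endothelial sum in D3BKO and 0.0151 in D3BWT. The part of immune cells and platelets in the Atp2a3 result was not tested.

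Skeletal muscle lies next to this depot and is rich in Atp2a1, Ckm and Ckmt2, so 23 of its markers were read. The fast myosin Myh4 was not listed in D3BKO and was at 0.05 FPKM in D3BWT, the slow myosin Myh7 was listed in neither library, and Mylpf was at 0.28 FPKM in D3BKO and 0.74 FPKM in D3BWT. Tnnt3 was not listed in D3BKO and was at 0.21 FPKM in D3BWT. These 4 contractile genes were below 1 FPKM in both libraries, as were most of the list. Of the 23 markers 5 reached 1 FPKM in at least 1 library (Acta1, Mb, Myl1, Myl3 and Pygm). The list summed to 88.9 FPKM in D3BKO and 104 FPKM in D3BWT, most of it from Myl1, at 71.3 FPKM in D3BKO and 88.3 FPKM in D3BWT. Mb, the oxygen store myoglobin, was at 10.39 FPKM in D3BKO and 9.16 FPKM in D3BWT, which was chosen after its values were seen. Of the 5 tested markers 2 were past 1.5-fold higher (Acta1 and Myl3) and none was lower. Acta1 was at 2.71 FPKM in D3BKO and 1.38 FPKM in D3BWT, a ratio of 1.96 (1.11 to 3.61). Myl3 passed the level of 1 FPKM in the D3BKO library alone, on 9 reads there and 1 read in D3BWT. Pygm ran the other way but was not past 1.5-fold, at 1.05 FPKM in D3BKO and 1.97 FPKM in D3BWT, a ratio of 0.533 (0.33 to 0.849). Besides Myh7, Myl2, Myot and Tnni1 were listed in neither library.

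SERCA activity is held in check or raised by small proteins. Sarcolipin (Sln), which uncouples the pump in muscle, was listed in neither library, and the same held for Mrln, Strit1 and Smim6. Phospholamban (Pln), the inhibitor in heart, was not listed in D3BKO and had 5 reads in D3BWT. Of the 8 genes of this list 3 were tested and 1 of them was past 1.5-fold higher, which was also past 2-fold. This was Nnat, a small membrane protein with likeness to phospholamban, at 206 FPKM in D3BKO and 97.1 FPKM in D3BWT, a ratio of 2.12 (1.97 to 2.28). Nnat is also imprinted and used as a marker of white adipocytes. The 5 genes read as white adipocyte markers summed to 717 FPKM in D3BKO and 391 FPKM in D3BWT. Of these, 4 of 5 were past 1.5-fold higher and none was listed at 0. The 4 include Dpt, at 179 FPKM in D3BKO and 80.7 FPKM in D3BWT, a matrix protein gene not particular to white adipocytes. The part of white adipocytes in the Nnat value was not tested. S100a1, a calcium sensor that in heart raises SERCA activity, was at 724 FPKM in D3BKO and 892 FPKM in D3BWT, a ratio of 0.811 (0.777 to 0.845). Hax1, which binds phospholamban, was at 46.15 FPKM in D3BKO and 48.01 FPKM in D3BWT.

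Channels that let calcium out of the reticulum differed little. Of 6 genes 4 were tested and none was past 1.5-fold, with a median log2 ratio of 0.03 that ranged from -0.03 to 0.12 over the alternatives. The inositol trisphosphate receptors Itpr1 and Itpr2 carried most of the signal. Itpr1 was at 20.7 FPKM in D3BKO and 19.3 FPKM in D3BWT, and Itpr2 at 20.1 FPKM in D3BKO and 20.5 FPKM in D3BWT. Ryr2, the ryanodine receptor that has been linked to calcium cycling in beige fat, was at 1.78 FPKM in D3BKO and 1.48 FPKM in D3BWT, a ratio of 1.2 (1.02 to 1.44). Ryr2 made up 4.11% of the summed channel FPKM in D3BKO and 3.5% in D3BWT. Ryr1, the channel of skeletal muscle, had 4 reads in D3BKO and 3 reads in D3BWT.

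In the lists of store proteins, store-operated entry and mitochondrial calcium no tested gene was past 1.5-fold on the scale of FPKM + 1. Store proteins and chaperones of the reticulum had 11 tested genes of 14, with a median log2 ratio of 0.01, and Calr, the main calcium buffer there, was at 149.85 FPKM in D3BKO and 149.78 FPKM in D3BWT (chosen after its value was seen). P4hb, a disulfide isomerase, had the largest log2 ratio by size among the tested genes of that list, with an FPKM ratio of 1.24 (1.15 to 1.34). Casq1, a calcium store protein of skeletal muscle that was not tested, had 6 reads in D3BKO and 1 read in D3BWT. Casq2, with 11 reads in D3BKO and 18 in D3BWT, and Hrc, with 2 in D3BKO and 3 in D3BWT, ran the other way. Neither of these was tested, and all were chosen after their values were seen. Store-operated entry had 5 tested genes of 6 and a median of 0.06, with a range of -0.04 to 0.15 over the alternatives. Its channel genes parted: Orai3 was at 16.7 FPKM in D3BKO and 25.3 FPKM in D3BWT, a ratio of 0.661 (0.572 to 0.762), and Orai1 at 6 FPKM in D3BKO and 4.26 FPKM in D3BWT, a ratio of 1.41 (1.04 to 1.92). Mitochondrial calcium uptake and release had 9 tested genes of 9 and a median of 0.03. Its member with the largest log2 ratio by size, the uniporter regulator Micu3, was at 4.16 FPKM in D3BKO and 5.23 FPKM in D3BWT.

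Of the 9 other calcium pumps and exchangers 3 were tested and 3 were listed in neither library. The 3 tested genes all had a log2 ratio above 0, where 45.9% of all tested genes did, with a median log2 ratio of 0.28 that kept its sign from 0.18 to 0.36 over the alternatives, and none was past 1.5-fold. Atp2b1 and Atp2b4, which pump calcium out through the plasma membrane, had ratios of 1.35 (1.13 to 1.6) and 1.27 (1.1 to 1.46). Atp2c1, the pump of the Golgi, had a ratio of 1.22 (1.05 to 1.41). Slc8a1, the sodium-calcium exchanger, was below 1 FPKM in both libraries and so not tested, with 90 reads in D3BKO and 25 reads in D3BWT, a ratio of 3.43 (2.2 to 5.63) chosen after its values were seen.

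**Figure D4:**
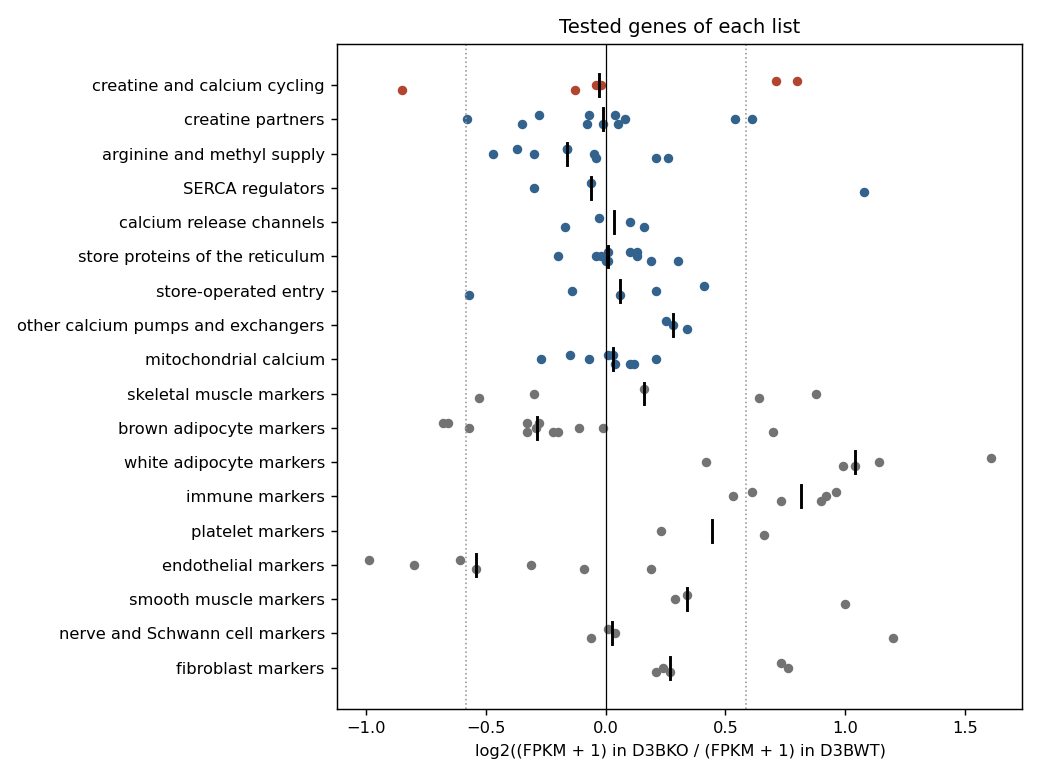
Log2 ratio of FPKM + 1, D3BKO over D3BWT, for the tested genes of each list, 1 point per gene, with a black bar at the list median and dotted lines at 1.5-fold. Among the creatine and calcium cycling genes (top row) 3 lie past a dotted line. The medians of the related lists (blue) lie between -0.16 (arginine and methyl supply) and 0.28 (other calcium pumps and exchangers). The tested immune and white adipocyte markers (grey) lie to the right of 0, as do those of the platelet, smooth muscle and fibroblast lists.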

How the data were processed

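RNA of brown adipose tissue was made into polyadenylated-RNA libraries, per the labels' protocols, with no mention of strand. Per the file headers, a line holds an Entrez identifier, RefSeq transcripts, a length, an expected count and FPKM. RSEM, with no version, and the build mm9 are named in the submitters' processing notes, and no aligner is named there. Expected counts deposited by the authors divide reads that match several genes. FPKM deposited by the authors is per kilobase and per library size and depends on the rest of the library. Symbols were matched by Entrez identifier to a RefSeq table of GRCm38.p6 (16134 of 16174).

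With 1 library per group there was no test and no p-value. The rule of size used log2(FPKM + 1), a minimum of 1 FPKM in at least 1 library, folds of 2 and 1.5, and an exact conditional Clopper-Pearson 95% interval of rounded counts that excluded 1. Intervals cover counting error only. The fold change on this scale understates low genes, and ratios in the text are of FPKM without pseudocount. The rule was tested on simulated data. Protein sequences were not used here. Genes named outside the members were the up to 4 tested genes per list with the largest log2 ratio by size, plus Dnmt3b, Ucp1, Sln, Pln and 5 muscle markers (Acta1, Myh4, Myh7, Mylpf and Tnnt3). Other genes named, among them Ckm, Ryr1, Slc25a4, Vdac1, Calr, Slc8a1, the unlisted pump regulators and the further markers said to be unlisted, were chosen after their values were seen. The members, the 17 other lists and these rules were chosen with earlier results of these data known. Alternatives were pseudocounts of 0.1 and 5, other filters, other scalings (TMM factors from edgeR 4.0.16, size factors from DESeq2 1.42.0), a length trend removed, and shared reads left out. Work was done in Python 3.11.15 with SciPy 1.17.1.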

Additional observations from a re-analysis of the deposited data

How the results depend on the processing

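Over the 11 alternatives the log2 ratio of FPKM + 1 ranged from -0.86 to -0.76 for Ckb, from 0.51 to 0.84 for Gamt and from 0.47 to 0.97 for Atp2a3, each without a change of sign. Ckb was past 1.5-fold lower under all of them. With a pseudocount of 5, neither Gamt (0.51) nor Atp2a3 (0.47) was past 1.5-fold, so 0 of the 9 genes were higher, and the adding of 5 itself shrinks ratios of low genes. Where the mean had to reach 5 FPKM, Atp2a3 was not tested and 1 gene was higher. Counts over all genes moved by more than 1.5 times as follows. Genes past 2-fold higher, 106 as reported, were 281 with a pseudocount of 0.1, 15 with a pseudocount of 5, 42 at a mean of 5 FPKM or more, 179 with CPM, 189 with TMM factors, 193 with DESeq2 size factors and 1 at a fold of 4. Genes past 2-fold lower, 79 as reported, were 196, 14 and 27 under the first 3 of these and 3 at a fold of 4. For genes past 1.5-fold, those higher (511 as reported) were 136 with a pseudocount of 5 and 221 at a mean of 5 FPKM or more. Those lower (402) were 620 with a pseudocount of 0.1, 107 with a pseudocount of 5 and 191 at a mean of 5 FPKM or more. Of the genes past 2-fold, 57.3% were higher as reported and 69.3% with the length trend removed. No paired analysis was possible because there was 1 library per genotype. Depth limits Ckmt1 and Atp2a1, with at most 3 reads in a library, and Gatm, whose interval spans 0.621 to 1.56.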
